A study of Callithrix jacchus with 4 samples.

Results

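The genes described here are 6 that astrocytes use to keep the fluid around neurons stable: *SLC1A2*, *SLC1A3*, *SLC4A4*, *AQP4*, *ALDH1L1* and *NDRG2*. They were chosen by name, and all 6 were found in the tables of unique molecular identifiers (UMIs, tags that each mark 1 captured transcript) of both cohorts, among the 16383 genes that the tables share. Single-nuclei RNA sequencing had been run on primary visual cortex (V1) of adult marmosets. The injured cohort is 3 animals whose left V1 received endothelin-1 (ET-1), a peptide that constricts vessels and causes an ischemic stroke, with gray matter taken 7 days later. Each injured animal gave 1 library, and the libraries titled F1619, F1565 and F1711 are called injured 1, 2 and 3. The control cohort is V1 of 3 uninjured adult marmosets combined before sequencing into 1 library, and differences among those animals were therefore not seen. The cohorts also differ in how nuclei were isolated and sorted, in the sequencing facility and instrument, and in how doublets were removed, and these differences cannot be told apart from the injury.

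Astrocytes take up the glutamate that synapses release, through the sodium-driven transporters GLT-1 (EAAT2, from *SLC1A2*) and GLAST (EAAT1, from *SLC1A3*). The sodium bicarbonate cotransporter NBCe1, from *SLC4A4*, moves base across the same membranes and steadies extracellular pH. Water crosses at the endfeet, the processes that wrap vessels, through the channel aquaporin-4 (*AQP4*). *ALDH1L1* encodes a folate enzyme and *NDRG2* a cytoplasmic protein of the NDRG family, and both are widely used to mark astrocytes.

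The annotation put 402, 919 and 786 nuclei of injured 1, 2 and 3 and 594 control nuclei in the astrocyte class, out of 7500, 12527, 9510 and 8610 nuclei in all. The median astrocyte nucleus held 5279.5, 2903 and 4666.5 UMIs in the injured libraries and 1183 in the control library, so a control nucleus held fewer UMIs. Levels are therefore given as UMIs of a gene per 1000000 UMIs of the astrocyte sum of a library (CPM), and shares of nuclei with a UMI are given after thinning each nucleus to 1000 UMIs. Between pairs of libraries, 15 to 27 cell barcodes were shared. Of the 6 genes, all but *SLC4A4* are among the markers by which the study named astrocytes, so their height in that class is a description and was not tested. Summed over the study's excitatory-neuron markers (6 of 6 with a UMI in each library), astrocyte sums held 977 to 1072 CPM in the injured libraries and 2093 in the control library. The 4 microglial markers listed for both cohorts summed to 180 to 266 CPM and to 90.2 CPM, and the 3 endothelial ones to 285 to 418 CPM and to 113 CPM. The 5 oligodendrocyte markers summed to 216 to 251 CPM and to 326 CPM, the 3 oligodendrocyte precursor markers to 214 to 360 CPM and to 307 CPM, and the 5 inhibitory-neuron markers to 24.3 to 36.6 CPM and to 17.3 CPM, with *SST* and *VIP* at 0 in the control astrocytes. The part of these other transcripts in the results was not tested.

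In astrocytes *AQP4* was higher, and *SLC1A2* lower, in each injured library than in the control library. *SLC1A2* gave the most UMIs of the 6 in every library and made up 3457, 4862 and 4096 CPM in injured 1, 2 and 3, against 12215 CPM in the control library. All 3 injured values were well under the control value, and their mean was 0.339 of it. The fitted change was -1.45 on the log2 scale (SE 0.24), with an adjusted p of 0.0116 (edgeR quasi-likelihood test, Benjamini-Hochberg), just outside the limit of 0.01 set for a call. By DESeq2 it passed (change -1.46), as it did in edgeR without injured 2 (-1.59) or injured 3 (-1.46), but not without injured 1 (-1.32). With a single control library, the fit takes the spread between injured animals as that of the control. *AQP4* stood at 392, 456 and 515 CPM in the injured libraries and at 95.9 CPM (83 UMIs, 95% Poisson interval 76.4 to 119) in the control library. Every injured value was at least 4 times the control value, and *AQP4* rose by 2.36 on the log2 scale (SE 0.26; edgeR, Benjamini-Hochberg adjusted p = 0.00364). A call required an adjusted p below 0.01, a natural-log fold change larger than 0.25 in size and detection in 10% or more of one cohort's nuclei. By that rule *AQP4* was the only 1 of the 6 called in astrocytes, where 187 of 12445 genes tested (1.5%) were called, 1.12% as higher and 0.378% as lower in the injured cohort.

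The other glutamate transporter lay on the opposite side of its control value. *SLC1A3* was at 2428, 2161 and 3302 CPM in the injured libraries and at 1399 CPM in the control library. The injured values were all higher, and the fitted change of 1.03 (SE 0.29) did not pass (edgeR, Benjamini-Hochberg adjusted p = 0.0583). For each *SLC1A3* UMI there were 8.73 *SLC1A2* UMIs in control astrocytes and 1.42, 2.25 and 1.24 in injured 1, 2 and 3. This ratio is taken within a library and does not depend on its depth.

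**Figure D1:**
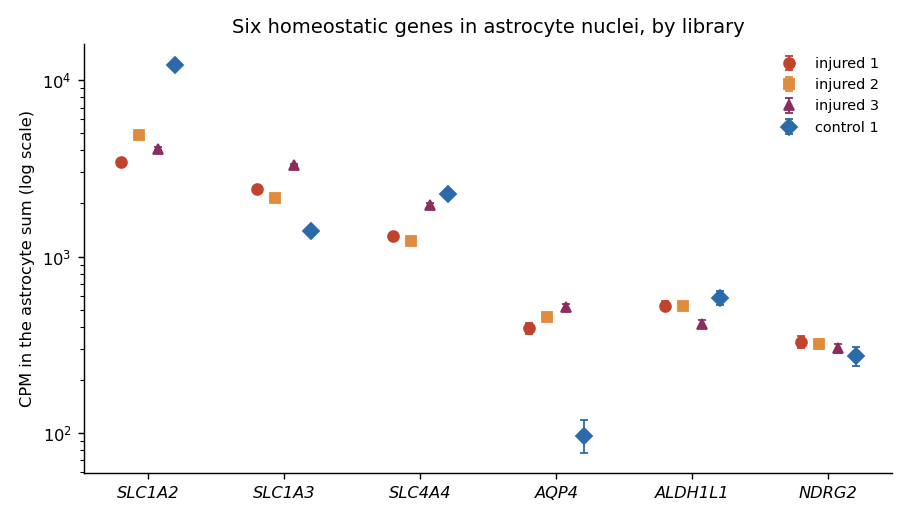
Level of each gene in astrocyte nuclei, as CPM of the library's astrocyte sum on a log axis, with 1 point per library and bars for the 95% Poisson interval (counting error only). The 3 injured points lie under the control point for *SLC1A2* and over it for *AQP4* and *SLC1A3*, while those of *ALDH1L1* and *NDRG2* lie close to it.

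The bicarbonate transporter and both remaining markers differed less between cohorts. *SLC4A4* was at 1304, 1233 and 1963 CPM in injured 1, 2 and 3 and at 2271 CPM in the control library. The injured values were lower but spread widely among themselves, and the change of -0.48 (SE 0.28) did not pass (edgeR, Benjamini-Hochberg adjusted p = 0.291). *ALDH1L1* was at 525, 525 and 415 CPM against 584 CPM, a change of -0.15 (SE 0.20; edgeR, Benjamini-Hochberg adjusted p = 0.647). *NDRG2* was at 327, 319 and 302 CPM against 272 CPM, a change of 0.33 (SE 0.18; edgeR, Benjamini-Hochberg adjusted p = 0.253). The changes of these 3 genes were each within 2 SE of 0. For reference, the reactive marker *GFAP* was at 523, 442 and 563 CPM against 148 CPM, and the intermediate filament gene *VIM* at 190, 103 and 161 CPM against 8.09 CPM.

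Added together, the 6 genes took 8433, 9556 and 10593 CPM of injured astrocytes and 16837 CPM of control astrocytes. The make-up of that total differed as well. *SLC1A2* supplied 72.6% of the control UMIs of the 6 genes but 41.0%, 50.9% and 38.7% of those in injured 1, 2 and 3. *SLC1A3* supplied 8.31% in the control library and 28.8%, 22.6% and 31.2% in the injured libraries.

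CPM is a share of the sampled transcripts, and counts per nucleus read differently. The mean astrocyte nucleus held 18.4, 15.5 and 20.0 *SLC1A2* UMIs in injured 1, 2 and 3 and 17.8 in the control library, so the injured mean of 17.95 ± 2.28 (SD, n = 3) differed from the control value by less than its spread. Over the same nuclei, total UMIs per nucleus were 3.66, 2.19 and 3.35 times the control mean. The other 5 genes had more UMIs per injured nucleus than per control nucleus, from 2.06-fold for *SLC4A4* to 14.4-fold for *AQP4* by the means. Whether injured nuclei held more RNA or were sampled more deeply cannot be told apart here.

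At equal depth the difference in *SLC1A2* was visible nucleus by nucleus. After thinning to 1000 UMIs, 72.4%, 80.4% and 80.4% of astrocyte nuclei of injured 1, 2 and 3 kept an *SLC1A2* UMI (398, 896 and 777 nuclei), against 99.2% of 362 control nuclei (95% Clopper-Pearson interval 97.6 to 99.8%). Nuclei under 1000 UMIs were left out, namely 4, 23 and 9 astrocytes of injured 1, 2 and 3 but 232 of the control library. The control shares thus describe its deeper nuclei only. Nuclei with 10 or more *SLC1A2* UMIs were 13.3%, 24.9% and 15.8% of the injured and 65.5% of the control nuclei. From the 10th to the 90th percentile, nuclei ran from 0 to 11, 0 to 15 and 0 to 12 *SLC1A2* UMIs in injured 1, 2 and 3 and from 4 to 22 in the control library. Relative to its mean the variance was larger in injured nuclei, at 5.44, 6.70 and 7.02 times the mean against 4.09 times. The order held without thinning, although it was the injured nuclei that were deeper: 88.8%, 90.5% and 93.8% of them had an *SLC1A2* UMI, and 98.5% of control nuclei did.

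**Figure D2:**
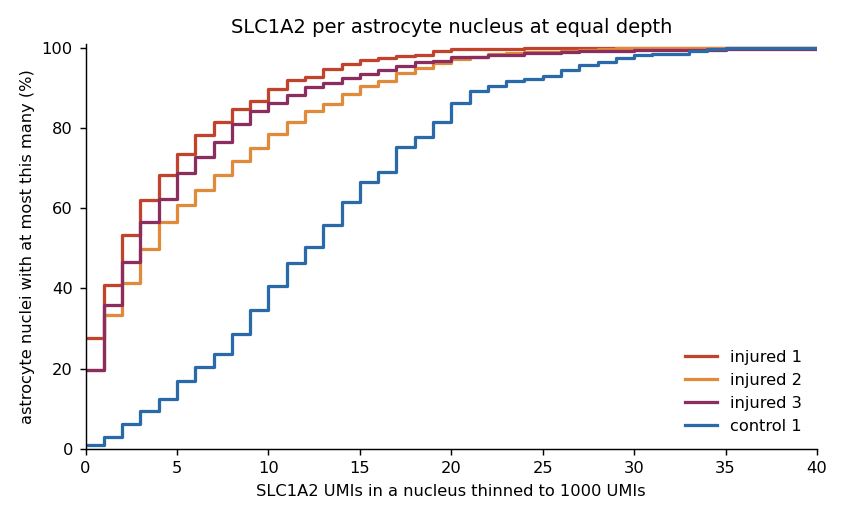
Cumulative share of astrocyte nuclei (%, vertical axis) with at most a given number of *SLC1A2* UMIs (horizontal axis) after thinning each nucleus to 1000 UMIs, 1 line per library. The injured lines start between 19.6% and 27.6% at 0 UMIs and the control line at 0.829%.

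In nuclei thinned to 1000 UMIs, *AQP4* differed in detection by more percentage points than *SLC1A2*, in the other direction, and the other 4 genes by fewer. This order depended on depth. With shallower thinning *AQP4* differed by fewer points than *SLC1A2*, and on all UMIs *SLC1A3*, *ALDH1L1* and *NDRG2* also differed by more. A UMI of *AQP4* was found in 33.2%, 32.8% and 39.5% of thinned injured nuclei and in 9.39% of control nuclei (6.59 to 12.9%). For *SLC1A3* the shares were 81.9%, 80.0% and 88.3% against 71.3%. For *SLC4A4* they were 61.8%, 61.0% and 72.3% against 82.0%. Shares of *ALDH1L1* (31.5% to 38.1% injured, 41.7% control) and *NDRG2* (25.6% to 27.7%, 25.1%) lay at or near the control intervals, which ran from 36.6% to 47.0% and from 20.8% to 29.9%. Counted on all UMIs instead, *ALDH1L1* was in 73.7% ± 2.14 (SD, n = 3) of injured and 48.7% of control nuclei, the opposite order. In thinned microglia, among the classes with the least *SLC1A2* in the injured cohort, the pooled injured shares were 9.13% for *SLC1A3*, 7.28% for *SLC4A4* and between 0.953% and 2.05% for the rest. Microglia are not a class without *SLC1A3*, since they held more of its UMIs than of *SLC1A2* (0.105, 0.412 and 0.133 *SLC1A2* UMIs for each in injured 1, 2 and 3), unlike astrocytes. Only 37 control microglia kept 1000 UMIs, and 16.2% of them had an *SLC1A3* UMI and 8.11% an *SLC1A2* UMI. None had an *AQP4* UMI, and 0 of 37 allows a share of up to 8.11%. The astrocyte shares lay above those of the microglia of the same cohort for all 6 genes. For *AQP4* in the control cohort, that limit lies inside the astrocyte interval (6.59 to 12.9%), so these classes could not be separated there.

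Within the injured libraries the other 5 genes were found more often in nuclei with an *SLC1A2* UMI. Among thinned nuclei with no *SLC1A2* UMI, *SLC4A4* was detected in 39.1%, 39.2% and 58.6%, against 70.5%, 66.4% and 75.7% of those with 1. *NDRG2* was detected in 14.5%, 10.2% and 17.1% against 29.9%, 31.9% and 29.8%. For each of the other 5 genes in each of the 3 animals, 15 comparisons in all, the share was lower in nuclei without *SLC1A2*. This was not particular to *SLC1A2*. Splitting by *SLC4A4* or by *NDRG2* likewise gave a lower share without that gene, for each other gene in each animal. In injured 2, for example, *NDRG2* was found in 35.8% of nuclei with an *SLC4A4* UMI and in 14.9% of those without. The only exceptions were pairs with *AQP4*. In injured 1 *ALDH1L1* was found in 35.6% of nuclei with an *AQP4* UMI and in 38.3% of those without. In injured 2 *SLC1A3* was found in 79.3% of nuclei with an *AQP4* UMI and in 80.4% of those without. Nuclei are not replicates, so these shares carry no test.

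The astrocyte class joins several of the study's clusters. Of the injured astrocytes, 2003 were in 1 cluster (*SLC1A2* 4144 CPM, *AQP4* 474 CPM), and 51 nuclei, 37 of them from injured 3, formed a cluster with 10636 CPM of *SLC1A2*. Of the control astrocytes, 500 were in 1 cluster (*SLC1A2* 14404 CPM, *AQP4* 79.6 CPM, *GFAP* 41.3 CPM). A control cluster of 66 nuclei had 1191 CPM of *GFAP*, 325 CPM of *AQP4* and 8242 CPM of *SLC1A2*, so that *AQP4* was higher and *SLC1A2* lower there than in the main control cluster. The remaining 28 control nuclei, with a median of 4441.5 UMIs, had 3669 CPM of *SLC1A2*, less than the main injured cluster, and 31.1 CPM of *AQP4*. Between the main clusters alone, a choice made after seeing the data, *SLC1A2* fell by 1.77 on the log2 scale (SE 0.24) and *AQP4* rose by 2.59 (SE 0.28). That choice leaves out the control clusters with 8242 and 3669 CPM of *SLC1A2* and the injured cluster with 10636 CPM. The clusters were made from these same counts, so the larger fall in *SLC1A2* is a description.

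Across cell types, astrocytes had the highest CPM of all 6 genes in both cohorts. The order of the other classes differed by gene. *SLC1A2* came next in oligodendrocyte precursor cells (OPC; 347 CPM over the injured cohort, 942 CPM in the control library), then in excitatory neurons of the injured cohort (ExN; 211 CPM). In the control library endothelial cells (Endo; 245 CPM, interval 182 to 323) and ExN (228 CPM, 221 to 235) could not be separated for that place. Microglia came last, at 20.8 and 24.1 CPM, and could not be separated from oligodendrocytes (Oligo; 24.2 CPM) in the injured cohort. The control value rests on 3 UMIs (interval 4.97 to 70.4 CPM), so that microglia could not be separated there from InN (inhibitory neurons; 62.9 CPM) or Oligo (77.5 CPM). By its fold over the next class *ALDH1L1* was the most restricted in the injured cohort, at 478 CPM in astrocytes and no more than 16.5 CPM in another class. In the control library it was 17.0 times its level in Endo (34.3 CPM, interval 13.8 to 70.7). *SLC1A2* was there 13.0 times its level in OPC and *AQP4* 9.79 times its level in Endo, so the order could not be settled. *NDRG2* was the least restricted in the injured cohort, with 314 CPM in injured astrocytes and 90.4, 71.1 and 70.4 CPM in OPC, Endo and Oligo, of which the last pair did not differ beyond counting error. In the control library the smallest gaps were those of *SLC1A3* and *SLC4A4*, at 1.67 and 1.72 times their level in Endo, against 5.596 times the next class for *NDRG2*. Because astrocytes were a small class, they held 65.5% to 73.4% of all *SLC1A2* UMIs of an injured library and 70.5% of those of the control library. They held 45.2% to 65.1% and 51.5% of the *SLC4A4* UMIs.

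**Figure D3:**
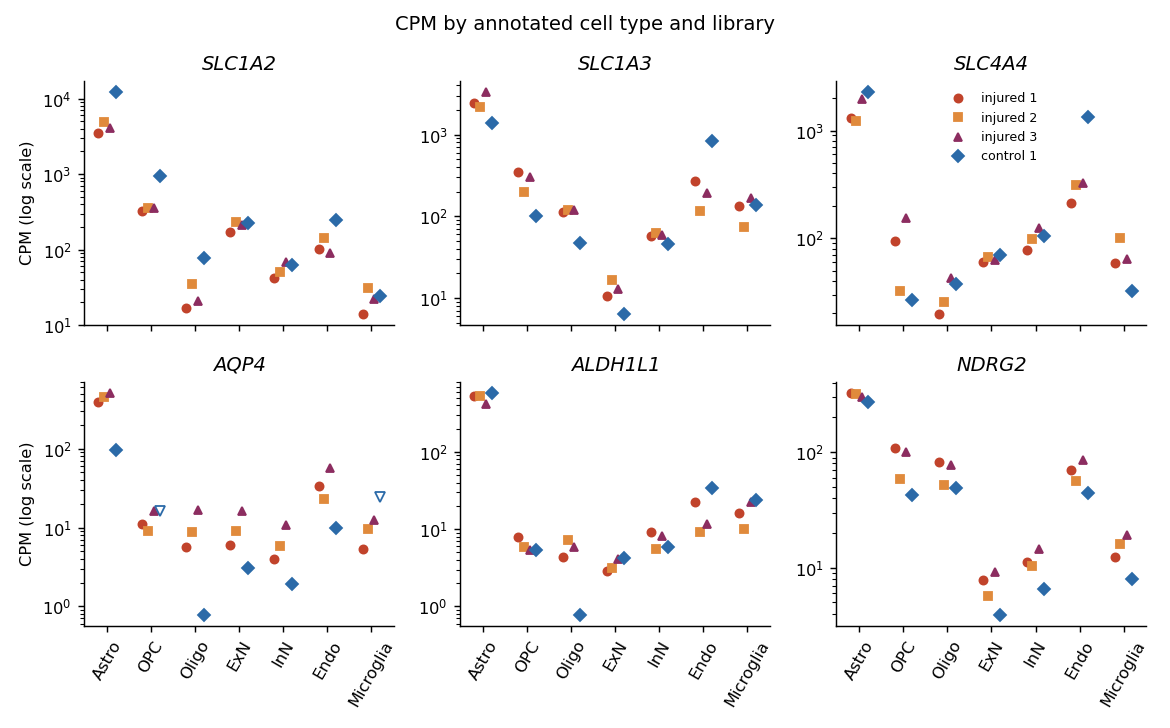
CPM of each gene (log axis) in each annotated class, with 1 point per library. Open triangles mark a class with no UMI, drawn at the level of 3 UMIs, which occurs for *AQP4* in control OPC and microglia. Astrocytes stand highest in each panel, and the control points of *SLC1A3* and *SLC4A4* in Endo lie above the injured ones.

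The change in *SLC1A2* was also compared between cell types. In ExN it was at 171, 229 and 214 CPM in injured 1, 2 and 3 and at 228 CPM in the control library, and the control value lay inside the injured range. The change in astrocytes minus the change in ExN was -1.47 on the log2 scale (SE 0.21; edgeR, library as a block, Benjamini-Hochberg adjusted p = 0.00934), a difference called for 0.47% of genes. Without injured 1 this difference was -1.42 and did not pass (edgeR, Benjamini-Hochberg adjusted p = 0.0816; without the other animals 0.00048 and 0.0006). Against InN it was -1.40 (SE 0.27; edgeR, Benjamini-Hochberg adjusted p = 0.0244), short of a call. In OPC *SLC1A2* was at 325, 360 and 355 CPM against 942 CPM, a change of -1.31 (SE 0.19; edgeR, Benjamini-Hochberg adjusted p = 0.0286) that was not called, and in Oligo at 16.7, 34.7 and 20.8 CPM against 77.5 CPM. The change in astrocytes minus that in OPC was -0.16 (SE 0.24; edgeR, Benjamini-Hochberg adjusted p = 0.852), so no difference between these 2 glial classes was detected. None of the 6 genes had a called difference between astrocytes and OPC, Oligo, InN or microglia, where 0.0956%, 0.118%, 0.45% and 0.278% of genes had one.

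*SLC1A3* was higher in injured than in control libraries in OPC and Oligo too. It was at 352, 199 and 299 CPM against 102 CPM (19 UMIs) in OPC, and at 113, 120 and 121 CPM against 47.0 CPM in Oligo. Neither change was called, at 1.61 (SE 0.42; edgeR, Benjamini-Hochberg adjusted p = 0.105) and 1.43 (SE 0.21; edgeR, Benjamini-Hochberg adjusted p = 0.0117). The number of *SLC1A2* UMIs per *SLC1A3* UMI differed widely between classes of 1 library, from 13.9 to 16.7 in injured ExN to 0.147 to 0.290 in injured Oligo, so the classes did not share 1 ratio of these transcripts. In OPC, thinned to 1000 UMIs, a *GFAP* UMI was found in 25.8%, 12.7% and 28.7% of nuclei of injured 1, 2 and 3 and in 0 of 80 control nuclei, which allows a share of up to 3.75% there. On all UMIs the pooled injured share was 40.4%.

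Under the Endo label, whose make-up differed between the cohorts, 2 of the genes were lower in the injured libraries by the call rule. *SLC1A3* was at 272, 116 and 192 CPM in Endo of injured 1, 2 and 3 and at 838 CPM in the control library (change -2.00, SE 0.37; edgeR, Benjamini-Hochberg adjusted p = 0.00748). *SLC4A4* was at 210, 313 and 324 CPM against 1323 CPM (change -2.09, SE 0.27; edgeR, Benjamini-Hochberg adjusted p = 0.00176). Of 13205 genes tested in Endo, 6.18% were called, 1.99% as lower. The label held 4444 injured nuclei but 181 control nuclei, and *FLT1*, an endothelial receptor, was higher in control microglia (570 CPM) than in control Endo (299 CPM).

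The clusters inside that label show where the transcripts were. In the control library, 155 of the 181 Endo nuclei were in a cluster with 10.9 CPM of *FLT1*, 926 CPM of *SLC1A3* and 1460 CPM of *SLC4A4*. Of the study's other endothelial markers, that cluster had 10.9 CPM of *SLC2A1* and 376 CPM of *IGFBP7*. The remaining 26 nuclei were in a cluster with 2866 CPM of *FLT1*. It held 1 *SLC1A3* UMI and 2 *SLC4A4* UMIs (48.6 and 97.2 CPM), both under the floor of 3 UMIs. In the injured cohort, 705 of 4444 nuclei were in a cluster of the first kind (31.5 CPM of *FLT1*, 673 CPM of *SLC1A3*, 1155 CPM of *SLC4A4*), and 1647 were in a cluster rich in *FLT1* (2207 CPM) with 24.2 CPM of *SLC1A3* and 52.4 CPM of *SLC4A4*. The largest injured Endo cluster, of 2005 nuclei, was also poor in *FLT1* (21.6 CPM) but had only 114 CPM of *SLC1A3* and 120 CPM of *SLC4A4*, and it made up 53.3%, 46.1% and 39.2% of the Endo nuclei of injured 1, 2 and 3. The *FLT1*-poor cluster rich in both transporters was 85.6% of control Endo nuclei and 13.8%, 14.4% and 18.7% of those of the injured animals. With every *FLT1*-poor cluster kept, a choice made after their values were seen, the change was -1.28 for *SLC1A3* (SE 0.35; edgeR, Benjamini-Hochberg adjusted p = 0.0532) and -1.36 for *SLC4A4* (SE 0.34; edgeR, Benjamini-Hochberg adjusted p = 0.0405), and neither was called. When only the transporter-rich clusters were compared, which were picked knowing that they were high in these genes, the change was -0.28 for *SLC1A3* (SE 0.42; edgeR, Benjamini-Hochberg adjusted p = 0.735) and -0.33 for *SLC4A4* (SE 0.31; edgeR, Benjamini-Hochberg adjusted p = 0.558), and neither was called. Only 11 of 9887 genes were called in that comparison, so the missing calls say little. The cell type of these clusters was not determined here.

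*SLC1A3* thus had opposite signs in astrocytes and in the Endo label, and the difference of 3.02 on the log2 scale was called (SE 0.42; edgeR, library as a block, Benjamini-Hochberg adjusted p = 0.00441; 1.61% of genes). With every *FLT1*-poor Endo cluster it was 2.28 (SE 0.37; edgeR, Benjamini-Hochberg adjusted p = 0.00646) and was called. With the transporter-rich clusters alone it was 1.33 (SE 0.47), which did not pass by edgeR (Benjamini-Hochberg adjusted p = 0.292). There 5 of 11936 genes were called, against 308 of 13384 with every *FLT1*-poor cluster. In all, 2 of 36 changes of the 6 genes in the 6 other classes were called, both in Endo. None was called in OPC, Oligo, ExN or InN, where 0.0697%, 0.774%, 3.85% and 3.41% of genes were called. In microglia edgeR called 0 genes, with 2857 at an unadjusted p below 0.05, and DESeq2 called 318. *AQP4* was also above its control value in all 3 injured libraries in ExN, InN, Endo and Oligo. Its injured mean was 3.41 and 3.51 times the control value in ExN and InN, against 4.74 times in astrocytes. Control levels were low in ExN and InN, at 3.04 CPM (Poisson interval 2.27 to 3.99) and 1.95 CPM (0.714 to 4.23). The control values in Endo, 9.80 CPM (1.19 to 35.4), and Oligo, 0.783 CPM (0.0198 to 4.36), lay under the floor of 3 UMIs. No fold is therefore given for Endo and Oligo. The lowest injured Endo value, 22.9 CPM, lay inside the control Endo interval. The change in astrocytes minus that in ExN, InN and Endo was 0.48 (SE 0.41), 0.38 (SE 0.70) and 0.30 (SE 1.34), and none of these differences was called. For *AQP4* the OPC and microglia of the control library had 0 UMIs, and the injured levels in both classes were below the 3 UMIs that such a count allows, so no fold is given there.

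**Figure D4:**
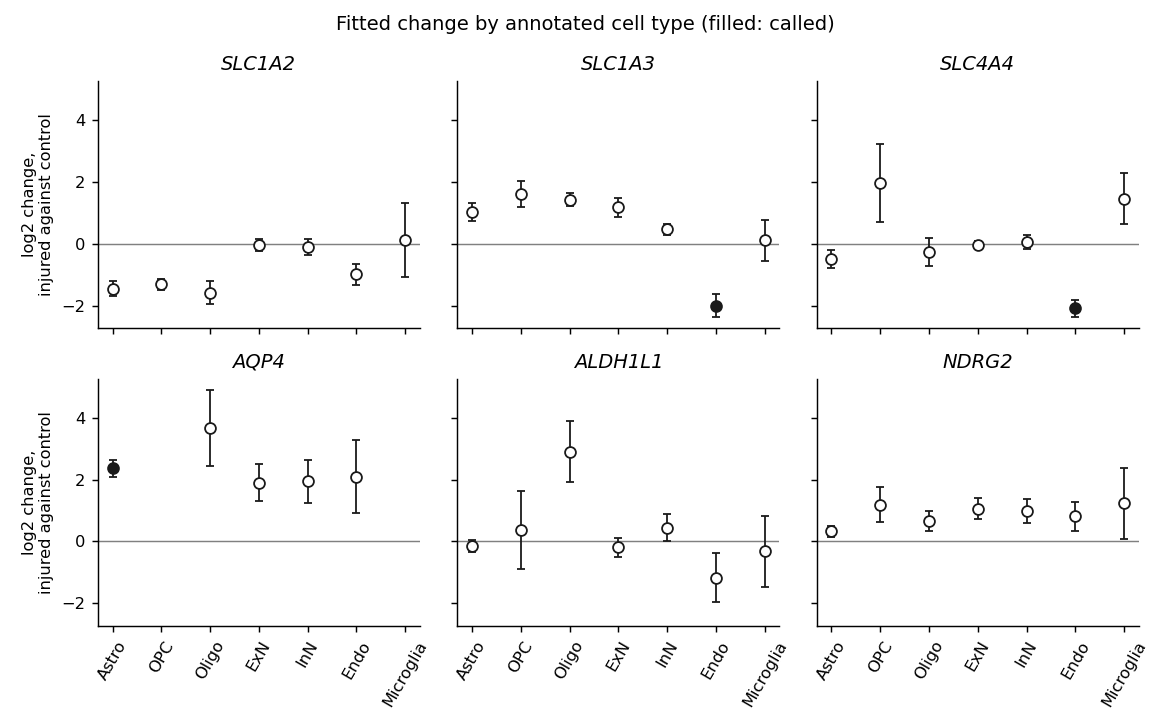
Fitted log2 change, injured against control, of each gene in each class, with bars of 1 SE and filled points for called changes. Filled points are *AQP4* in astrocytes and *SLC1A3* and *SLC4A4* in Endo, and *AQP4* is not drawn for OPC and microglia, where the control library had no UMI.

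Injured astrocytes that expressed *RTN4* (which the study calls *RTN4A*, the gene of the neurite outgrowth inhibitor NogoA) had less of 3 of the 6 genes than other astrocytes of the same animal. A nucleus was RTN4A+ when its log-normalized *RTN4* value was above 1, which put 337, 675 and 585 nuclei of injured 1, 2 and 3 in that class and 65, 244 and 201 in the RTN4A- class. *SLC1A2* was at 3276, 3892 and 3523 CPM in RTN4A+ and at 4609, 8982 and 6482 CPM in RTN4A- astrocytes. It was lower in the RTN4A+ class of every animal, with a difference of -0.89 on the log2 scale (SE 0.091; edgeR, animal as a block, Benjamini-Hochberg adjusted p = 1.3e-08). With this threshold 316 of 10544 genes were called (3%), 1.4% as lower in RTN4A+.

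*SLC4A4* was at 1226, 1063 and 1797 CPM in RTN4A+ and at 1800, 1953 and 2653 CPM in RTN4A- astrocytes, and fell by 0.68 (SE 0.085; edgeR, Benjamini-Hochberg adjusted p = 7.5e-07). *NDRG2* was at 318, 272 and 278 CPM against 388, 520 and 404 CPM, and fell by 0.63 (SE 0.11; edgeR, Benjamini-Hochberg adjusted p = 0.000101). Without injured 2, the *NDRG2* difference was -0.45 and no longer called (edgeR, Benjamini-Hochberg adjusted p = 0.0217). The other 3 genes did not pass: -0.29 for *ALDH1L1* (SE 0.094; edgeR, Benjamini-Hochberg adjusted p = 0.0624), -0.22 for *SLC1A3* (SE 0.081; adjusted p = 0.124) and -0.07 for *AQP4* (SE 0.097; adjusted p = 0.813).

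RTN4A+ nuclei were deeper, with a median of 5389, 3200 and 5026 UMIs against 4291, 2296 and 3584. After thinning to 1000 UMIs, *SLC1A2* fell by 0.64, *SLC4A4* by 0.54 and *NDRG2* by 0.63, and all 3 were still called. They were also called within the main injured cluster alone, where *SLC1A2* fell by 0.89. Without the animal as a block edgeR called 0 genes, with 892 at an unadjusted p below 0.05, and the 3 differences were -0.93, -0.67 and -0.62 (Benjamini-Hochberg adjusted p = 0.274, 0.399 and 0.278). In the control library, with 125 RTN4A+ and 469 RTN4A- astrocytes and no replicate, *SLC1A2* was at 11150 and 12617 CPM, and at equal depth at 12877 and 12987 CPM. *SLC4A4* was at 1845 CPM (95% Poisson interval 1676 to 2026) in control RTN4A+ and at 2432 CPM (2312 to 2557) in control RTN4A- astrocytes. At equal depth its RTN4A- level was 1.22 times the RTN4A+ level in the control library and 1.43, 1.61 and 1.32 times in injured 1, 2 and 3, and the thinned control intervals overlap (1730 to 2498 CPM in RTN4A+, 2365 to 2726 CPM in RTN4A-). *NDRG2* was at 253 and 279 CPM in the control classes, with intervals that overlap. Both injured classes thus lay under both control classes in *SLC1A2*, including the RTN4A- class of each animal.

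**Figure D5:**
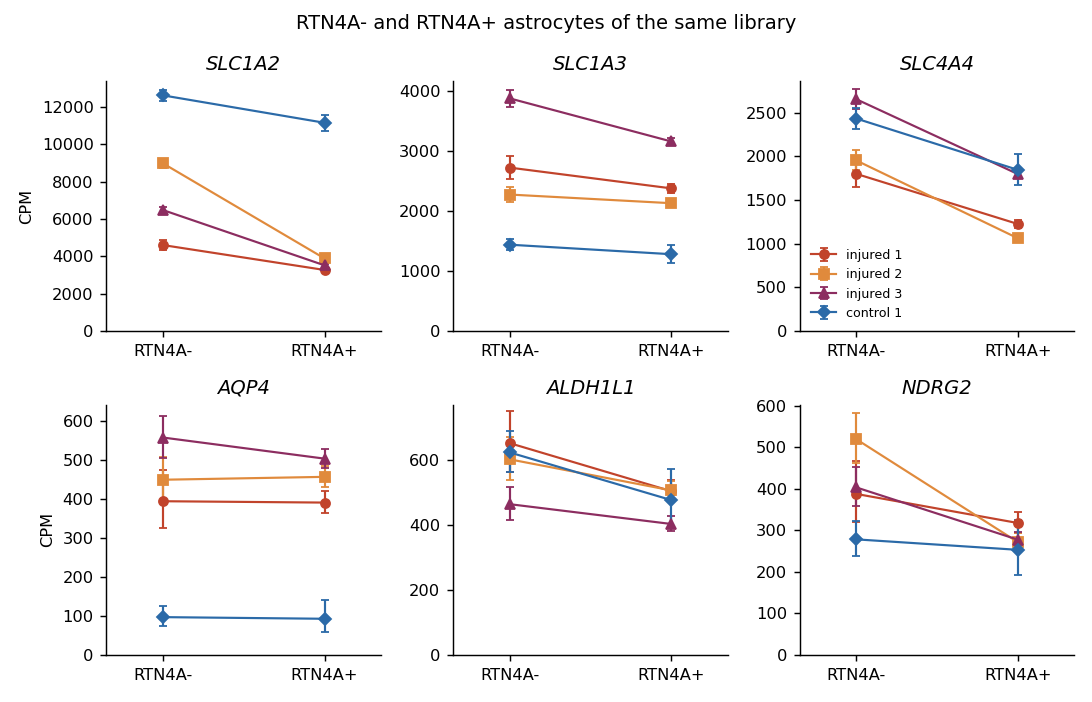
CPM of each gene in RTN4A- and RTN4A+ astrocytes of the same library, joined by a line, with bars for the 95% Poisson interval. The injured lines of *SLC1A2*, *SLC4A4* and *NDRG2* descend in all 3 animals, and those of *AQP4* are nearly flat.

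Grouping injured astrocytes by *GFAP* gave no called difference in the 6 genes. At 1000 UMIs, 139, 277 and 300 nuclei had a *GFAP* UMI and 259, 619 and 477 had none. *AQP4* was at 612, 664 and 593 CPM in nuclei with *GFAP* and at 371, 391 and 549 CPM in nuclei without, and was higher with *GFAP* in each animal. The difference of 0.53 (SE 0.13) did not pass (edgeR, animal as a block, Benjamini-Hochberg adjusted p = 0.192), where 2 of 6137 genes (0.0326%) were called. On all UMIs the difference was 0.85 and was called (edgeR, Benjamini-Hochberg adjusted p = 0.00351). *SLC1A2* was at 3647, 4884 and 4470 CPM with *GFAP* and at 4015, 6281 and 5126 CPM without (difference -0.21, SE 0.082; edgeR, Benjamini-Hochberg adjusted p = 0.522).

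Other genes of the same 4 functions were read from lists, in which 48 genes were tested in astrocytes and 0 were called, against 1.5% of all genes, a share too small for this count to set the lists apart. Of 13 tested for glutamate and glutamine handling, 5 had a positive and 8 a negative change (median -0.16, against 0.05 over all genes). The gene with the most UMIs, the glutamate receptor gene *GRM3*, was at 748, 693 and 1083 CPM against 763 CPM. *GLUL*, the glutamine synthetase that acts on the glutamate taken up, was at 304, 340 and 282 CPM against 537 CPM (change -0.69, SE 0.18; edgeR, Benjamini-Hochberg adjusted p = 0.0501) and is named after its value was seen. Of 9 tested for anchoring of the water channel at endfeet, 6 had a positive and 3 a negative change (median 0.31). The only gene of this list that passed at 0.05 alone had a negative change and is not named here. *DTNA*, the dystrobrevin gene with the most UMIs there, was at 2492, 1980 and 3586 CPM against 1585 CPM (change 0.88, SE 0.34; edgeR, Benjamini-Hochberg adjusted p = 0.129).

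Of 16 tested for potassium, sodium, chloride and acid-base transport, 6 had a positive and 10 a negative change (median -0.30). The bicarbonate cotransporter *SLC4A7* was at 98.1, 80.6 and 99.2 CPM against 33.5 CPM (change 1.58, SE 0.28; edgeR, Benjamini-Hochberg adjusted p = 0.0141), the opposite sign to *SLC4A4*. Of 10 tested gap junction, folate and NDRG-family genes, 8 had a positive change (median 0.45). The gap junction gene *GJA1* was at 294, 205 and 370 CPM against 97.1 CPM (change 1.69, SE 0.36; edgeR, Benjamini-Hochberg adjusted p = 0.0261). *ALDH1L2*, the mitochondrial relative of *ALDH1L1*, was at 103, 192 and 82.5 CPM against 15.03 CPM (change 3.18, SE 0.64; edgeR, Benjamini-Hochberg adjusted p = 0.0216), and *MTHFD1*, of the same folate pathway, at 38.8, 33.1 and 33.1 CPM against 76.3 CPM (change -1.02, SE 0.23; adjusted p = 0.0335). *SLC4A7* and these 3 genes passed at 0.05 but not at 0.01. Of all genes, 7.16% passed at 0.05, those called at 0.01 included. Of the 48 list genes tested, 3 passed at 0.05 with a positive and 2 with a negative change.

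Across the 28 sums of 4 libraries and 7 classes, the genes most like each of the 6 in log2(CPM + 1) are given as a description, since the sums share libraries and depth. The closest to *SLC1A2* were *MSI1*, *ZNRF3* and *GPM6A* (Pearson's r of 0.93 for each). The closest to *SLC1A3* were *FOXO1*, *GRAMD2B* and *ACSS1* (0.92 to 0.89), and to *SLC4A4* *LRIG1*, an Ensembl gene without a symbol and *CEP85L* (0.94 to 0.91). *CCDC129* was among the closest to both *AQP4* (0.90) and *ALDH1L1* (0.90). *NDRG2* was closest to *ADORA2B*, *ADGRG3* and *CYP2J2* (0.91 for each). Between the 6 themselves, r ran from 0.57 (*SLC1A2* with *SLC1A3*) to 0.87 (*SLC1A3* with *NDRG2*), so both glutamate transporters were the pair with the least alike profiles.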

How the data were processed

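Single-nuclei libraries were made from V1 of 3 injured marmosets and from a pool of 3 uninjured ones. The authors aligned reads and counted UMIs with Cell Ranger 3.1.0 against an Ensembl marmoset annotation, filtered nuclei and clustered them with Seurat, and deposited 1 table of raw UMI counts per cohort with cell type labels, which were used as given. Those clusters were made from the same counts. The cohorts were isolated, sequenced and filtered for doublets differently, and doublets were not called again.

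The members and gene lists were chosen with earlier results of these data known. All 6 members are reported, with *GFAP* and *VIM* beside them, the 3 genes most like each member, and, of each list, called genes or else the one with the highest CPM; 4 list genes that passed at 0.05 alone, and *GLUL*, were named after their values were seen, and some list genes are not reported here. No column of other samples was present (0). UMIs were summed per library and label. Sums were tested with edgeR 4.0.16 in R 4.3.3 (TMM scaling, filterByExpr, quasi-likelihood test, Benjamini-Hochberg adjustment over all genes tested). Differences between labels had library as a block, and classes within animals had animal as a block, since both sums come from the same animal. Intervals (95%; Poisson for CPM, Clopper-Pearson for shares) and floors (3 UMIs) cover counting error only. Total UMIs per library were 35737777, 48722394 and 42956736 (injured) and 22832703 (control). Alternatives were library-size and RLE scaling, DESeq2 1.42.0, no filter, thinning to 500, 1000 or 1500 UMIs, nuclei with at most 2500 genes, other class rules, no block, and each animal left out. The test scripts were tested on simulated data, with 100 genes changed 4-fold and 100 changed 2-fold. The injury test in astrocytes recovered 63.4% and 11.2% of these, and the test of astrocytes minus Endo 18.2% and 3.03%. Most 2-fold changes would thus not be called by either. The *GFAP* class test recovered 93.5% and 42.4%, and the RTN4A class test 89.4% and 53.1%. Coordinates and sequences are not given, since no genome of the files' build was used here.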

Additional observations from a re-analysis of the deposited data

Results flagged for a closer look

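Differences in the injury effect between cell types passed the test for 2 of the 36 pairs of a gene and another class. The effect on *SLC1A2* was -1.47 on the log2 scale in astrocytes minus excitatory neurons. Control neurons lay inside the range of the injured ones, and control astrocytes above it. This difference was not called without injured 1, without the library as a block or with scaling by library size alone. The effect on *SLC1A3* was 3.02 in astrocytes minus the Endo label. There the *FLT1*-poor cluster rich in *SLC1A3* was 85.6% of control and 13.8% to 18.7% of injured Endo nuclei, and with such clusters alone, picked knowing their *SLC1A3* level, the difference was 1.33 and was not called. Those clusters gave 5 calls among 11936 genes, against 220 among 13655 with the whole label, so the missing call says little. With every *FLT1*-poor Endo cluster it was 2.28 and was called.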

How the results depend on the processing

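No paired analysis was possible because the control is a single library pooled from other, uninjured animals, so the injury comparison has no blocked fit. In comparisons within animals the block joins sums of the same animal. Without the replicate block, 0 genes were called for RTN4A+ against RTN4A- and 0 for *GFAP*, 0 differences of the 6 genes between cell types were called, and the *SLC4A4* difference by *GFAP* was 0.022. The *SLC1A2* difference between astrocytes and ExN was then -1.46 and the *SLC1A3* difference between astrocytes and Endo 2.98, neither called.

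In astrocytes *AQP4* was called under each alternative run, from 2.23 to 2.59. *SLC1A2* passed with library size alone (-1.56), DESeq2 (-1.46), no filter (-1.40), thinning to 1000 UMIs (-1.34), the main clusters alone (-1.77, chosen after seeing the data) and a limit of 0.05 (-1.45); leaving out 1 animal gave -1.59 to -1.32, not called without injured 1. Against 187 genes called in astrocytes, there were 82 with nuclei of at most 2500 genes, 88 after thinning, 109 in the main clusters, 338 without the filter, 350 by DESeq2, 891 at 0.05, and 82 (without injured 1) to 716 (without injured 2) with 1 animal left out (315 without injured 3). Among at most 2500 genes per nucleus, *SLC1A2* was at 5484 CPM (injured mean) and 13286 CPM (control), and *NDRG2* at 393 and 299 CPM.

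For *GFAP* classes 119 genes were called on all UMIs, 8 with at least 2 *GFAP* UMIs and 1 to 6 with an animal left out. For RTN4A classes 64 were called after thinning and 144 (without injured 2) to 363 with an animal left out (198 without injured 3). Changes of the 6 genes called in other classes numbered 1 with library size alone, 4 by DESeq2, 4 at 0.05, 0 with the transporter-rich *FLT1*-poor Endo clusters alone, 0 with every *FLT1*-poor Endo cluster (both chosen after seeing the data), and 2 to 7 with an animal left out, the most without injured 2. Calls over all genes rose without injured 2 as well, from 8 to 820 in OPC, 443 to 1541 in InN and 816 to 1617 in Endo. Differences called between astrocytes and other classes numbered 1 with library size alone, 1 with the transporter-rich Endo clusters, 2 with every *FLT1*-poor one, and 2 to 5 with an animal left out (5 without injured 2, 4 without injured 3). Over all genes, differences called without injured 2 went from 70 to 399 against ExN, 38 to 412 against microglia and 220 to 217 against Endo.

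Injured minus control shares of astrocyte nuclei at 500 UMIs were -30.7 percentage points for *SLC1A2*, 17.5 for *SLC1A3* and 14.4 for *AQP4*. At 1500 UMIs they were 36.9 for *AQP4* and -10.2 for *ALDH1L1*. On all UMIs, where injured nuclei were deeper, they were -7.45 for *SLC1A2*, 19.3 for *SLC1A3*, -0.47 for *SLC4A4*, 57.7 for *AQP4*, 29.2 for *NDRG2* and, with the sign turned, 25.1 for *ALDH1L1*.

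The other sign changes were in differences that were not called. By *GFAP* class, all UMIs gave 0.10 for *SLC1A2* and 0.092 for *SLC4A4*, at least 2 *GFAP* UMIs gave -0.013 for *SLC1A3* and -0.030 for *NDRG2*, and library size alone gave -0.0097 for *NDRG2*; leaving out an animal gave -0.097 to 0.14 for *SLC4A4* and -0.19 to 0.17 for *NDRG2*. Library size alone gave -0.045 for *SLC4A4* in InN, -0.12 for *SLC1A2* and for *SLC1A3* in microglia, and 0.041 for *ALDH1L1* in astrocytes minus ExN. The transporter-rich Endo clusters gave 1.04 for *SLC1A2*, -0.19 for *SLC4A4* and 0.27 for *NDRG2* in astrocytes minus Endo, and every *FLT1*-poor Endo cluster gave -1.24 for *AQP4*. Leaving out an animal gave -0.13 to 0.085 for *SLC1A2* and -0.087 to 0.0065 for *SLC4A4* in ExN, -0.32 to 0.049 and -0.13 to 0.22 for the same genes in InN, and -0.19 to 0.41 for *SLC1A2* and -0.15 to 0.37 for *SLC1A3* in microglia. In astrocytes minus another class it gave -0.00078 to 0.57 for *AQP4* (Endo), -0.45 to 0.16 for *SLC1A3* (ExN), -0.094 to 0.23 for *ALDH1L1* (ExN) and -0.067 to 0.61 for *ALDH1L1* (microglia). Of the remaining values for single genes, 523 kept their direction and side of the limit, 18 passed it under the alternative alone and 14 no longer passed it. Where not stated, the cause of a change was not tested. Control astrocytes, at a median of 1183 UMIs, limit what can be said of *AQP4*, *ALDH1L1* and *NDRG2* in single nuclei.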
